A study of Mus musculus with 12 samples.

Results

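The hippocampus of mice whose abdomen had been irradiated was compared with the hippocampus of mice that had not been irradiated, in 6 of the 12 libraries of the study. The 3 irradiated libraries come from male C57BL/6 mice, an inbred strain, given X-rays to the abdomen as a model of chronic injury of the gut, with a dose of 13 Gy in their names. The 3 controls are male C57BL/6 mice without irradiation. Each library is 1 mouse, tissue was taken in a chronic phase, and the sources used here give neither the time nor the age of the mice. The other 6 libraries hold the prefrontal cortex, and mice of the same number and treatment gave both regions. Values are FPKM-like (fragments per kilobase of transcript and per 1 M mapped fragments, M for mega), and 12947 of the 23183 genes in the tables had a mean of at least 1 over the 6 hippocampal libraries and were tested. Values are listed for mouse 1, 2 and 3 in that order, irradiated mice first.

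The hippocampus is the brain region that forms new episodic and spatial memories. It lies far from the abdominal field, so the comparison asks what its RNA looks like after an injury elsewhere in the body. Signals from the gut, blood or immune system reach the brain mainly through its vessels, whose endothelial cells are joined by tight junctions, wrapped by pericytes and, at the surface, embedded in the meninges. The choroid plexus, which makes cerebrospinal fluid, hangs in the ventricle beside the hippocampus and comes along in a dissection to a varying extent. In bulk tissue, fewer cells of a type and less RNA per cell cannot be told apart.

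Depth was even, at an estimated 17.2 to 18.6 M fragments per hippocampal library. The dentate granule cell gene C1ql2 was at 29.5, 35.99 and 31.96 in the irradiated and 36.2, 31.4 and 38.1 in the control mice, so the tissue label held in every library. Irradiated mouse 2 stood apart before any comparison: all 22 choroid plexus genes tested, and 134 genes in all, lay below 0.5 of their lowest value in any other hippocampal library. The same count was between 4 and 10 for each of the other 5 libraries. List medians and differences below that move by over 1.5 times without that mouse are therefore given also without it. Of the markers of neighbouring regions, the striatal gene Adora2a (0.562 to 0.94) and the hypothalamic gene Hcrt (0 to 0.152) were below 1 in every library. Drd2, another striatal marker, was above 1 in every library. It was at 1.96, 1.23 and 1.59 in the irradiated and 1.36, 1.49 and 1.29 in the control mice, with overlap. The hypothalamic peptide gene Avp was at 0.332, 0.846 and 0.518 in the irradiated and 1.55, 0.857 and 1.36 in the control mice, lower in every irradiated mouse.

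With all 6 libraries, 0 of 12947 genes passed limma's test at an adjusted p of 0.05, which is 0% of the genes tested. The smallest adjusted p was 0.0971. At an unadjusted p under 0.05 there were 1361 genes, 10.5% of those tested, where that threshold alone gives 647. Of these, 609 (4.7%) were higher and 752 (5.81%) lower in the irradiated mice. Over all genes 6091 (47%) had a positive and 6856 (53%) a negative difference. Every irradiated mouse was above every control in 960 genes (7.41%), and below in 1057 (8.16%). Differences of at least 0.5 on the log2(value + 1) scale in such genes were more often upward, in 53 genes, than downward, in 19. The count of 1361 rests on single mice, since it was 580 without control 1, 774 without irradiated mouse 1 and 801 without irradiated mouse 2. Rescaling the libraries to equal totals moved the median difference of all genes from -0.01 to 0.068 and the number of positive differences to 9186, so counts of signs in lists with small medians depend on the scaling. Since 0 genes passed, the genes below are described by their values, and none is called changed.

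**Figure D1:**
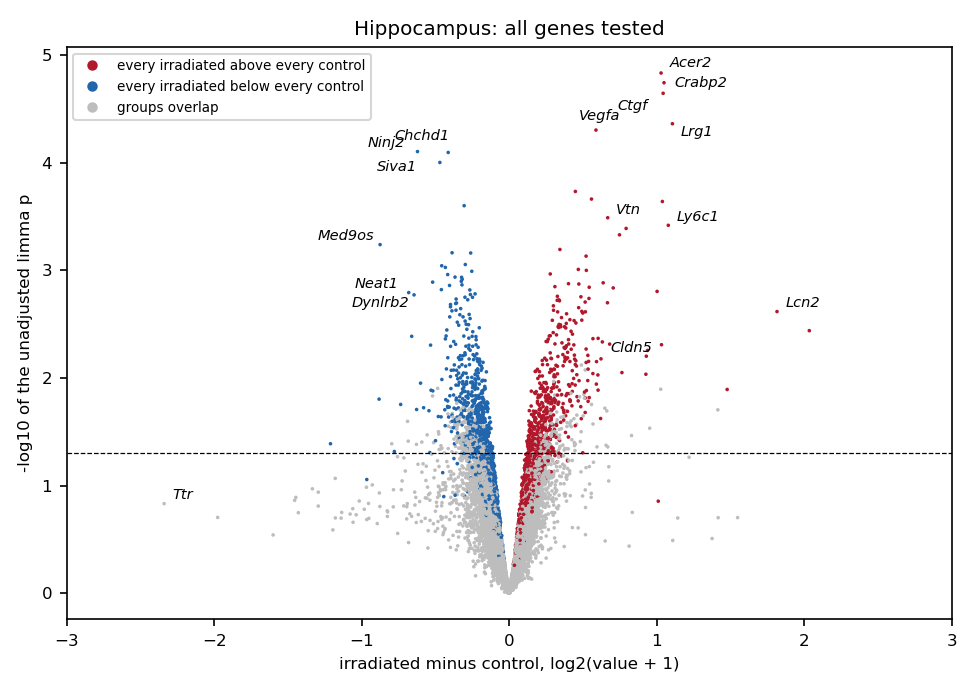
Each point is 1 of the genes tested in the hippocampus, with the difference between irradiated and control mice on the log2(value + 1) scale (x axis) against -log10 of the unadjusted limma p (y axis). The dashed line marks the unadjusted threshold, red and blue points are genes whose groups do not overlap, and 4 genes with a difference beyond 3 are outside the frame. Acer2, Crabp2 and Ctgf lie highest, and the choroid plexus gene Ttr lies far to the left with overlapping groups.

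Acer2, an alkaline ceramidase that splits ceramide into a fatty acid and sphingosine, had the smallest p of all genes. Its level was 2.52, 3.43 and 3.02 in the irradiated and 0.8805, 1.01 and 0.94 in the control mice. With a control mean of 0.944, below 1, it passed the filter only through its irradiated values, which favours a positive sign. The 3 controls lay close together and the groups were far from overlapping, with a difference of 1.03 ± 0.11 (SE) on the log2(value + 1) scale and an adjusted limma p of 0.0971. Its relatives did not stand out. Acer3 was at 2.696, 2.61 and 2.69 in the irradiated and 2.36, 2.72 and 2.15 in the control mice, and Acer1 was listed at 0 in all 6. Among 24 genes of ceramide and sphingosine phosphate metabolism, 14 had positive differences with a median of 0.044. They include Ugcg, which adds glucose to ceramide (difference 0.24 ± 0.0759), Sptlc2, a subunit of the first enzyme of the pathway (0.19 ± 0.0634), and S1pr5, a sphingosine phosphate receptor (-0.27 ± 0.09501).

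Crabp2, which carries retinoic acid to its nuclear receptors, was at 4.58, 3.999 and 3.56 in the irradiated and 1.18, 1.46 and 1.68 in the control mice. Every irradiated mouse was more than 2-fold above every control, a difference of 1.05 ± 0.12 with an adjusted p of 0.0971. Ctgf, a matricellular protein also known as a target of TGF-beta and of the YAP pathway, was at 9.82, 7.48 and 7.84 in the irradiated and 3.11, 4.07 and 3.44 in the control mice. Irradiated mouse 1 was highest and the groups were again well apart (1.04 ± 0.12, adjusted p 0.0971). Lrg1, a glycoprotein of the acute phase that vessels also make, was at 1.85, 2.41 and 2.52 in the irradiated and 0.399, 0.394 and 0.757 in the control mice, near the lower limit of what the filter admits. The difference was 1.11 ± 0.14 with an adjusted p of 0.128. When the values were rescaled to equal totals Acer2, Crabp2, Ctgf and Lrg1 passed at an adjusted p of 0.0481 each, and under limma's robust moderation the first 3 passed at 0.0496.

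In the mm10 annotation Acer2 is at chr4:86874396-86934822 (plus strand), Crabp2 at chr3:87948666-87953376 (plus), Lrg1 at chr17:56119678-56122001 (minus) and Vegfa at chr17:46016993-46032369 (minus). These spans cover whole protein-coding genes, to which the values refer.

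**Figure D2:**
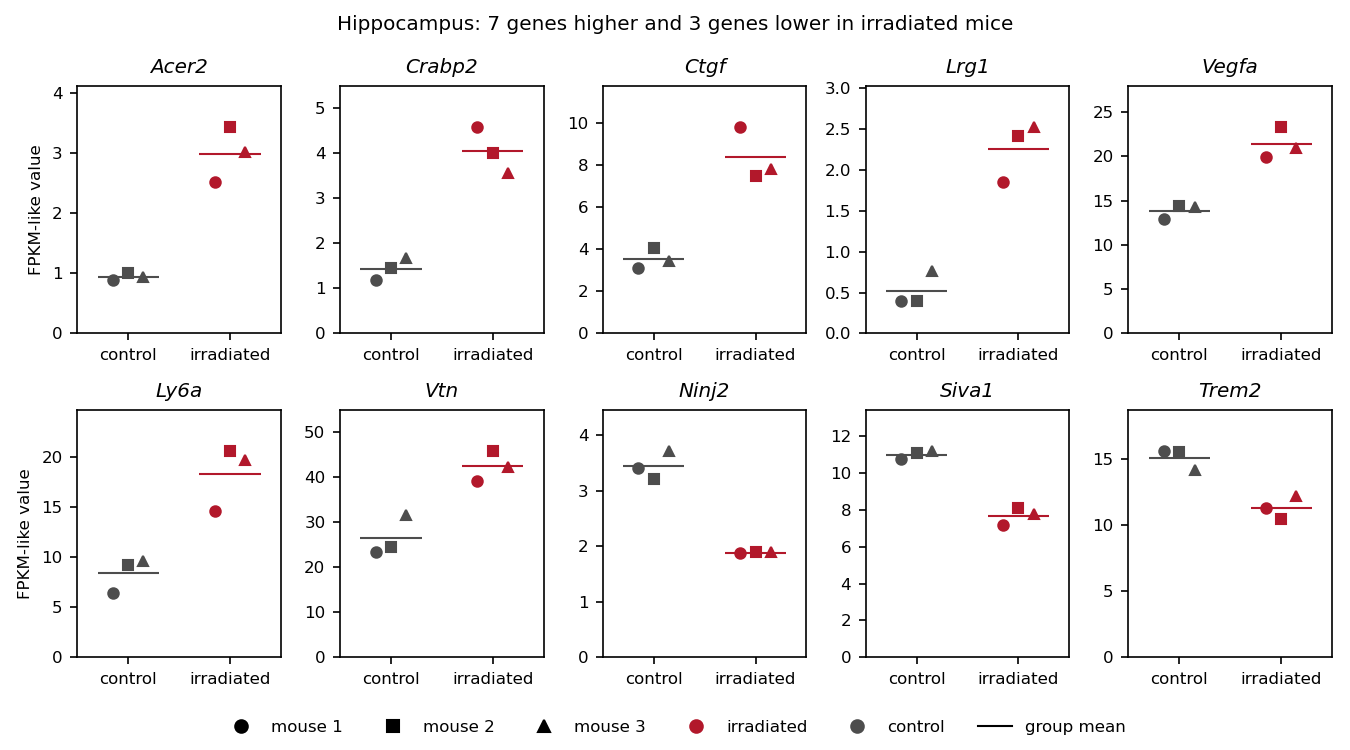
FPKM-like values (y axes, from 0) of 10 genes in the hippocampus, with 1 point per mouse and the group mean as a line. The first 7 have every irradiated mouse above every control and the last 3 have every irradiated mouse below. Mice of the same number in the 2 groups are different animals.

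Vegfa, the main growth factor for vessels, which hypoxia and other stimuli induce, was at 19.9, 23.3 and 20.9 in the irradiated and 12.9, 14.4 and 14.2 in the control mice. The lowest irradiated mouse lay well above the highest control, and the difference was 0.59 ± 0.0743 (adjusted p 0.128). It alone passed when 1 fit was made over all 12 libraries, at an adjusted p of 0.0404. Of 8 VEGF ligand and receptor genes tested, 6 had positive differences (median 0.11), among them the ligand Vegfc. In 4 every irradiated mouse was above every control (7.41% of all genes). The 2 with negative differences were the ligands Vegfb and Pgf, placental growth factor. Vegfb was at 57.3, 46.5 and 55.3 in the irradiated and 64.03, 63.5 and 53.8 in the control mice. Pgf was at 2.58, 2.32 and 2.401 in the irradiated and 2.15, 2.897 and 2.82 in the control mice. Both had overlapping groups. Of the receptors, Flt1 was at 5.08, 5.68 and 4.94 in the irradiated and 2.01, 3.81 and 3.76 in the control mice, with control 1 lowest and every irradiated mouse above the controls (0.60 ± 0.18). Kdr, the main signalling receptor, was at 2.07, 2.28 and 1.99 in the irradiated and 1.39, 1.79 and 1.84 in the control mice (0.22 ± 0.10). Neuropilin 1, a co-receptor, was at 22.1, 23.1 and 22.5 in the irradiated and 20.8, 20.97 and 21.4 in the control mice (0.10 ± 0.04903). These were small steps without overlap.

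Genes of the hypoxia response were near 0 in their median difference. Of 22 tested, 16 had positive differences, with a median of 0.049 beside -0.01 over all genes. In 3 every irradiated mouse was above every control (7.41% of all genes), namely Vegfa, P4ha1 and Slc2a1, and in 1 every one was below. At an unadjusted p under 0.05, 4 were higher (4.7% of all genes) and 1 lower. With equal totals 21 of the 22 had positive differences and the median was 0.13, beside 0.068 over all genes. In the prefrontal cortex 20 of 21 had positive differences, with a median of 0.14 beside 0.004 over all genes. P4ha1, a collagen prolyl hydroxylase, was at 12.7, 13.6 and 13.6 in the irradiated and 9.77, 11.1 and 11.2 in the control mice (0.29 ± 0.0691). Slc2a1, the glucose transporter of the blood-brain barrier, was at 26.5, 33.6 and 36.4 in the irradiated and 22.6, 25.4 and 26.2 in the control mice (0.36 ± 0.11), with irradiated mouse 1 just above the highest control. Adm, a vasodilator peptide, was high mainly in irradiated mouse 2, at 0.989, 2.52 and 1.4 in the irradiated and 1.04, 0.4703 and 0.415 in the control mice. Its control mean was 0.641, so it passed the filter only through its irradiated values.

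The bases upstream of the start sites of Vegfa, P4ha1 and Slc2a1 are shown because these 3 genes of the list were separated between the groups. Each run is the 250 bases before a start site of RefSeq on GRCm38.p6 (mm10), on the gene's strand, and capitals mark ACGTG on either strand, the core of the motif bound by hypoxia-inducible factors.
Vegfa, first window, chr17:46032378-46032627, minus strand: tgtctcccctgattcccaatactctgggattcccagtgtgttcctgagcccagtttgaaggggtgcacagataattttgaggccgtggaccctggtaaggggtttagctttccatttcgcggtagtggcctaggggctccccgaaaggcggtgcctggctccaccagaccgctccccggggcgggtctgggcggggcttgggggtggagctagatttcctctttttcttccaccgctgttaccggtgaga
Vegfa, second window, chr17:46025164-46025413, minus strand: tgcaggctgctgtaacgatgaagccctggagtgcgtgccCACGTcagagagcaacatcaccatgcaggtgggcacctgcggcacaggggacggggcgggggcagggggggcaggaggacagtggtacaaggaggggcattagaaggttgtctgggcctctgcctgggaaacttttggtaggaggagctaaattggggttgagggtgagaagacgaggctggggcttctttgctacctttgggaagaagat
P4ha1, chr10:59323046-59323295, plus strand: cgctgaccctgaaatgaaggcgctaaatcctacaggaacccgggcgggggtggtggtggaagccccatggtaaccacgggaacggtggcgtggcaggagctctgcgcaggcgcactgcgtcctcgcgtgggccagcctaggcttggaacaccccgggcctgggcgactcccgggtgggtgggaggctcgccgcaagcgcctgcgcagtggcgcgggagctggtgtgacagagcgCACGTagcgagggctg
Slc2a1, chr4:119108495-119108744, plus strand: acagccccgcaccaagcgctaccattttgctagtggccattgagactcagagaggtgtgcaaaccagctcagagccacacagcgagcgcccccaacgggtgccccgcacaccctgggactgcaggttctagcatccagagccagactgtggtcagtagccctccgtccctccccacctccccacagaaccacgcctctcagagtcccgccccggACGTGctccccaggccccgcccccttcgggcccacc
The motif occurs once in the P4ha1 window, its last base 12 bases before the start, and once in that of Slc2a1, 32 bases before the start. For Vegfa the table holds 2 start sites: the motif occurs once in the second window, 207 bases before that start, and is not among the letters of the first. That second window lies inside the Vegfa gene as positioned above, downstream of the first start site. Vegfa enters the next count only through it. Of 21 genes of the hypoxia list with a window in the table, 15 (71.4%) hold the motif in at least 1 window, and of all 27025 genes with a window 4998 (18.5%) do. Per window the share is 16.6% of 32851. A match is a string of letters and not a measured binding site. Since the list holds genes known as hypoxia-induced, its share describes the list and not these mice.

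Endothelial genes had mostly higher values in the irradiated mice. Of 18 identity and junction genes tested, 16 had positive differences and 10 reached an unadjusted p under 0.05 (4.7% of all genes did in that direction). In 12 every irradiated mouse was above every control (7.41% of all genes). The median difference was 0.41, and 0.36 without irradiated mouse 2 and 0.28 without control 1. Control 1 was the lowest library, with a list mean -0.21 from the control mean, and irradiated mouse 2 the highest at 0.52. The other 2 controls were at 0.087 and 0.12 and the other 2 irradiated mice at 0.37 and 0.41.

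Ly6a, a surface antigen that brain endothelium carries in this strain, was at 14.7, 20.6 and 19.7 in the irradiated and 6.43, 9.22 and 9.63 in the control mice. Ly6c1, a related antigen of the same cells, was at 21.03, 26.1 and 30.6 in the irradiated and 8.99, 15.1 and 11.4 in the control mice. Both showed every irradiated mouse well above the controls, with differences of 1.04 ± 0.16 and 1.08 ± 0.18. The genes of this family are near-identical in places, so fragments may be split among them. The claudin of brain tight junctions, Cldn5, was at 15.3, 15.6 and 10.99 in the irradiated and 7.31, 7.93 and 10.8 in the control mice. Irradiated mouse 3 barely exceeded control 3 there (0.63 ± 0.16). Pecam1, an adhesion molecule of endothelial contacts, was at 3.77, 4.95 and 4.15 in the irradiated and 1.69, 2.82 and 2.56 in the control mice (0.67 ± 0.15), and control 1 was lowest. Eng, a TGF-beta co-receptor of endothelium, was at 4.32, 3.59 and 4.36 in the irradiated and 2.05, 2.61 and 2.84 in the control mice (0.54 ± 0.11). Adgrl4, an adhesion receptor of vessels, was at 3.13, 3.898 and 3.096 in the irradiated and 1.21, 1.71 and 1.92 in the control mice (0.75 ± 0.13). Podxl, a sialomucin of the luminal surface, was at 3.93, 3.95 and 3.28 in the irradiated and 2.06, 2.29 and 2.51 in the control mice (0.52 ± 0.0981), so that in all 3 the groups were apart. Ocln and Egfl7, which are in the same list, had differences near 0 or below.

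Endothelial activation genes were sparse. Vwf, a clotting factor stored in endothelium, was at 1.52, 3.84 and 2.76 in the irradiated and 0.333, 0.744 and 1.301 in the control mice, a wide spread with irradiated mouse 2 highest (1.03 ± 0.27). Klf2, a flow-induced factor, was at 2.73, 4.17 and 5.33 in the irradiated and 2.02, 2.8 and 2.34 in the control mice and its groups overlapped. Nos3, endothelial nitric oxide synthase, was at 1.32, 1.21 and 1.06 in the irradiated and 0.606, 0.866 and 0.978 in the control mice. Of 14 such genes 8 were tested, and 7 of these had positive differences (median 0.33). Vwf, Nos3 and Lrg1 had control means below 1 (0.793, 0.817 and 0.517) and passed the filter only through their irradiated values.

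All 12 pericyte and smooth muscle genes tested had positive differences, 6 of them without overlap (7.41% of all genes), and the median was 0.32. Without irradiated mouse 2 it was 0.25, with 10 positive and 2 negative differences, and without control 1 it was 0.18. The list mean of irradiated mouse 1, 0.13 from the control mean, lay just above that of control 3, 0.12. Vtn, vitronectin, which brain pericytes make in quantity, was at 39.2, 45.8 and 42.3 in the irradiated and 23.5, 24.4 and 31.5 in the control mice (0.67 ± 0.11). Control 3 stood between the groups. Notch3, a receptor of mural cells, was at 1.73, 1.81 and 1.98 in the irradiated and 1.005, 1.15 and 1.25 in the control mice (0.41 ± 0.09698). Abcc9, a potassium channel subunit of pericytes, was at 1.26, 1.55 and 1.52 in the irradiated and 0.797, 0.923 and 0.971 in the control mice (0.37 ± 0.10). Its control mean was 0.897, so it passed the filter only through its irradiated values, which favours a positive sign. Atp13a5, another pericyte gene, was at 1.85, 2.39 and 1.69 in the irradiated and 0.9803, 1.301 and 1.57 in the control mice, close together but without overlap. The defining pericyte markers differed less, Pdgfrb by 0.18 ± 0.0968 (0.094 without irradiated mouse 2) and Rgs5 by 0.33 ± 0.15.

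Barrier transporters had smaller differences. Of 16 tested, 14 had positive differences and 4 were without overlap above (7.41% of all genes), with a median of 0.13. Abcb1a, the efflux pump P-glycoprotein, was at 3.78, 4.85 and 3.27 in the irradiated and 1.64, 2.66 and 2.99 in the control mice (0.54 ± 0.18). Slc38a5, a glutamine transporter, was at 1.19, 1.39 and 2.003 in the irradiated and 0.642, 0.755 and 0.843 in the control mice (0.52 ± 0.14), and Mfsd2a, a lipid transporter of the barrier, at 5.15, 8.15 and 7.41 in the irradiated and 4.82, 5.38 and 4.63 in the control mice. Abcb1a was without overlap by a small margin, and Mfsd2a overlapped. Slc38a5, with a control mean of 0.747, passed the filter only through its irradiated values, which favours a positive sign. Of 12 basement membrane genes 9 had positive differences, with a median of 0.061 (0.13 without irradiated mouse 2), led by Col4a1 at 4.79, 6.06 and 3.99 in the irradiated and 2.56, 3.24 and 3.56 in the control mice (0.52 ± 0.15). Lamc1 (0.28 ± 0.0918) and Col4a2 (0.34 ± 0.14, and 0.18 without irradiated mouse 2) were without overlap too.

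**Figure D3:**
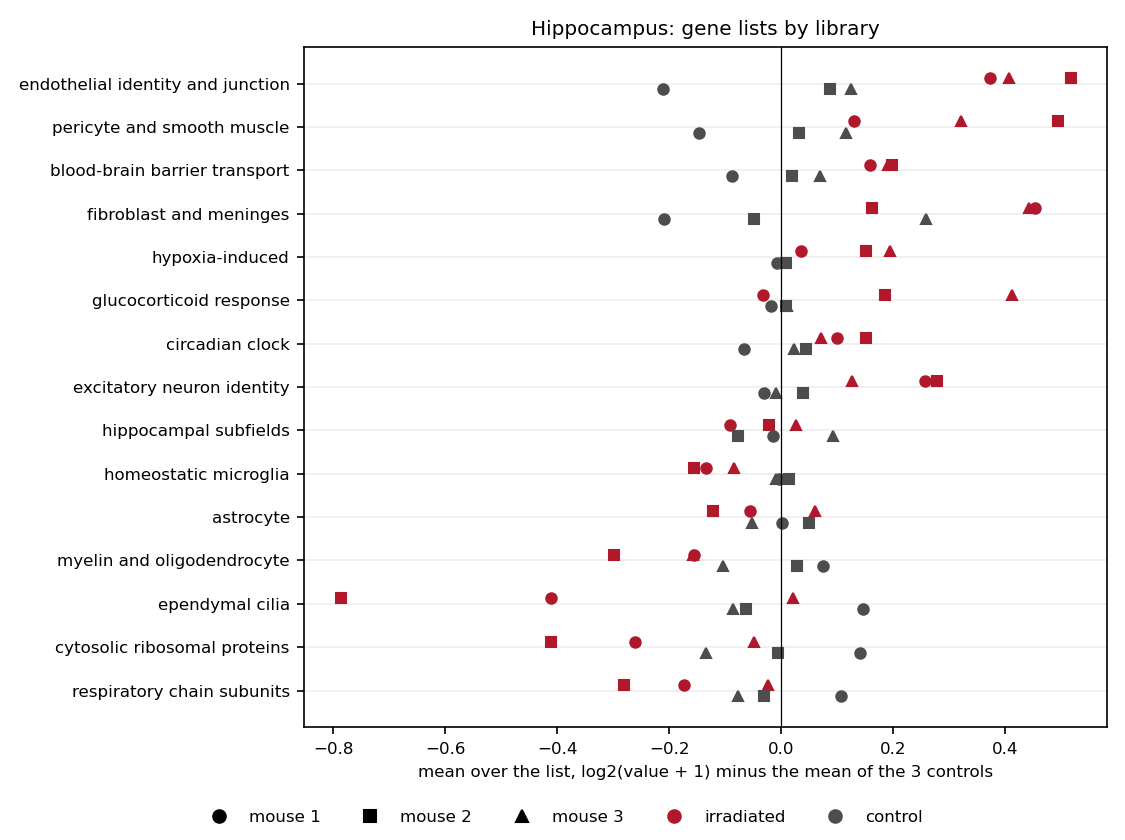
Mean over the tested members of 15 gene lists in each hippocampal library, as log2(value + 1) minus the mean of the 3 controls (x axis), with 1 symbol per mouse. Endothelial, pericyte and barrier lists have all 3 irradiated mice to the right of the controls, with control 1 lowest. Ribosomal and respiratory chain lists run to the left in irradiated mice 1 and 2 while irradiated mouse 3 lies among the controls.

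Genes of fibroblasts and meninges had mostly higher values in the irradiated hippocampus and mostly lower ones in the irradiated prefrontal cortex. In the hippocampus 14 of 18 had positive differences, and 10 of them reached an unadjusted p under 0.05 (4.7% of all genes). In 5 every irradiated mouse was above every control (7.41% of all genes). The median of the list was 0.41, and 0.26 without control 1. The list mean of irradiated mouse 2, 0.16 from the control mean, lay below that of control 3, 0.26. In the prefrontal cortex 16 of 17 had negative differences, with a median of -0.32. Opposite signs were seen in 13 of the 17 genes tested in both. The interaction of region and treatment was at an unadjusted p under 0.05 in 11 of 18, against 5.69% of all genes, and 0 passed after adjustment (smallest adjusted p 0.0619, for Crabp2). How much of the surface membrane stays on a piece of tissue when it is dissected was not measured, and its part in these values was not tested.

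Crabp2 in the prefrontal cortex was at 1.004, 2.604 and 1.57 in the irradiated and 2.74, 2.93 and 3.29 in the control mice, the reverse of the hippocampal order and also without overlap. Its interaction was 1.64 ± 0.22 (unadjusted p 4.8e-06, adjusted 0.0619). Slc6a13, a GABA and taurine transporter of the meninges, was at 5.21, 5.39 and 4.71 in the irradiated and 1.303, 1.83 and 4.03 in the control mice in the hippocampus. Control 3 was close to the irradiated mice. In the prefrontal cortex it was at 1.36, 2.54 and 2.23 in the irradiated and 4.96, 3.73 and 3.17 in the control mice, again reversed (interaction 1.64 ± 0.32, adjusted p 0.315). Col1a1, the main fibrillar collagen chain, was at 1.99, 1.87 and 1.86 in the irradiated and 0.585, 0.843 and 1.395 in the control mice in the hippocampus and at 0.9198, 1.11 and 0.849 in the irradiated and 1.802, 1.23 and 1.27 in the control mice in the prefrontal cortex. The groups were apart in both regions, in opposite directions (interaction 0.91 ± 0.19, adjusted p 0.32). In the hippocampus the control mean of Col1a1 was 0.941, so it passed the filter there only through its irradiated values. In the prefrontal cortex its irradiated mean was 0.960, so there it passed only through its control values. Fn1, fibronectin, was at 7.74, 7.42 and 6.04 in the irradiated and 1.87, 3.13 and 5.23 in the control mice in the hippocampus, with control 3 again nearest (0.94 ± 0.25).

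Aldh1a2, which makes retinoic acid in the meninges, was at 5.61, 5.06 and 5.89 in the irradiated and 1.895, 2.6 and 5.75 in the control mice in the hippocampus, where control 3 equalled the irradiated mice. In the prefrontal cortex it was at 0.895, 2.25 and 2.11 in the irradiated and 3.22, 3.31 and 3.47 in the control mice. Ptgds, the prostaglandin D synthase of meninges and choroid plexus, chosen after its values were seen, was at 1115, 872 and 1201 in the irradiated and 324, 477 and 886 in the control mice in the hippocampus. It was at 279.9, 638 and 554 in the irradiated and 916, 776 and 799 in the control mice in the prefrontal cortex, where every irradiated mouse was lower. Spp1, osteopontin, was at 9.26, 6.11 and 9.96 in the irradiated and 2.05, 4.92 and 6.88 in the control mice in the hippocampus and at 2.99, 3.45 and 3.28 in the irradiated and 3.87, 5.399 and 5.33 in the control mice in the prefrontal cortex. Its hippocampal groups overlapped in mouse 2. Igf2 and Igfbp2, which choroid plexus shares with meninges, had negative differences (-0.50 ± 0.33 and -0.71 ± 0.45), which were -0.049 and -0.10 without irradiated mouse 2. Igfbp2 was at 84.4, 25.6 and 108 in the irradiated and 117, 101 and 89.6 in the control mice, lowest in that mouse. Both were chosen after their values were seen.

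**Figure D4:**
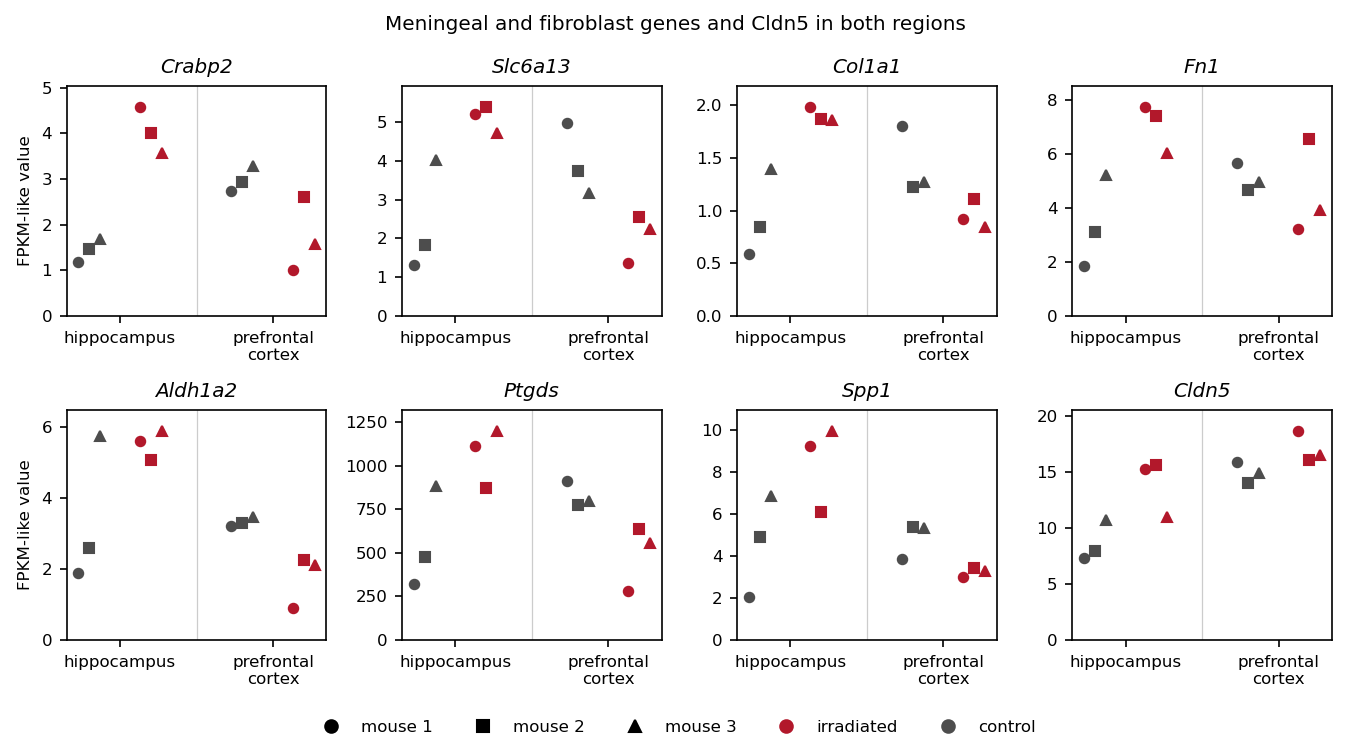
FPKM-like values (y axes, from 0) of 7 genes of meninges and fibroblasts and of the endothelial gene Cldn5 in both regions, controls in grey and irradiated mice in red, with 1 symbol per mouse. Crabp2, Slc6a13 and Col1a1 have separate groups of opposite order in the 2 regions. Cldn5 is higher in every irradiated mouse of the hippocampus, by least in mouse 3.

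The retinoid list as a whole did not follow Crabp2 and Aldh1a2. Of 16 genes 6 had positive differences, and the median of -0.064 turned to 0.074 without irradiated mouse 2, whose Rdh5, a retinol dehydrogenase, was at 1.76 against 9.3 or more in the other 5 libraries. Nor did the TGF-beta and YAP list follow Ctgf. It had 8 positive differences of 17 and a median of -0.006 (0.075 without irradiated mouse 2). In 3 genes, Ctgf, Cyr61 and Smad7, every irradiated mouse was above every control (7.41% of all genes). Cyr61, a close relative of Ctgf, was at 2.39, 2.94 and 2.48 in the irradiated and 1.53, 1.98 and 2.06 in the control mice (0.34 ± 0.11). Smad7, an inhibitor of TGF-beta signalling, was at 9.95, 9.12 and 9.56 in the irradiated and 8.88, 8.35 and 8.596 in the control mice (0.13 ± 0.06301). The median of the list changed sign with 6 of the 15 alternatives.

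Ctgf is also a marker of the deepest cortical neurons, and it is in the list of excitatory identity genes together with Nxph4 and Cplx3. Of the other 16 tested, 11 had positive differences with a median over the 16 of 0.12, and 4 were higher at an unadjusted p under 0.05 (4.7% of all genes). Tbr1, a factor of deep cortical layers, was at 18.2, 18.5 and 15.4 in the irradiated and 13.1, 14.4 and 12.7 in the control mice (0.35 ± 0.0835). Slc17a6, the vesicular glutamate transporter of subcortical and some retrosplenial neurons, was at 5.55, 7.597 and 5.84 in the irradiated and 3.59, 5.24 and 4.03 in the control mice (0.47 ± 0.14). Both were without overlap. The deep-layer genes Nxph4, at 2.03, 1.33 and 1.18 in the irradiated and 1.18, 0.853 and 0.661 in the control mice, and Cplx3, at 3.72, 3.36 and 2.36 in the irradiated and 1.95, 2.52 and 1.05 in the control mice, were looked at after the values of Ctgf were seen. Nxph4 reached 1 in the 3 irradiated mice and in control 1. With a control mean of 0.896 it passed the filter only through its irradiated values. Lamp5, a cortical marker, overlapped, at 19.99, 20.3 and 17.1 in the irradiated and 17.2, 18.9 and 16.1 in the control mice. How much cortex each piece of hippocampus held was not measured, and its part in the value of Ctgf was not tested.

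Subfield genes of the hippocampus gave no common direction. Of 24 tested 15 had negative differences (median -0.076), and with equal totals the median was 0.008. Wfs1, a CA1 gene, was at 52.3, 50.3 and 40.7 in the irradiated and 39.3, 40.5 and 35.1 in the control mice (0.31 ± 0.0996), all irradiated mice higher. Fibcd1, also of CA1, was at 28.3, 32.2 and 32.1 in the irradiated and 37.4, 32.97 and 38.01 in the control mice (-0.22 ± 0.0759), all irradiated mice lower. Spink8, another CA1 gene, was at 21.1, 23.6 and 26.99 in the irradiated and 33.1, 25.5 and 32.7 in the control mice and overlapped. The order of these 3 CA1 genes thus differed. Bok, a gene of the BCL2 family, was at 34.6, 33.6 and 35.3 in the irradiated and 42.9, 37.4 and 39.95 in the control mice (-0.21 ± 0.0606).

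Reln, the extracellular matrix protein of Cajal-Retzius cells and interneurons, was at 9.64, 9.08 and 9.002 in the irradiated and 5.49, 6.69 and 7.11 in the control mice (0.47 ± 0.0923). Its groups did not overlap, while in the prefrontal cortex the difference was -0.014 (interaction 0.48 ± 0.11, adjusted p 0.364). Of 20 interneuron genes 10 had positive differences, and Chrm2, a muscarinic receptor, was at 2.16, 2.74 and 2.79 in the irradiated and 1.44, 1.395 and 2.14 in the control mice (0.43 ± 0.14). Among 27 glutamate and GABA receptor subunits 21 had positive differences (median 0.056). Grik3, a kainate receptor subunit, was at 10.8, 9.51 and 8.59 in the irradiated and 6.13, 7.38 and 6.45 in the control mice (0.47 ± 0.0978), Gria4, an AMPA receptor subunit, differed by 0.23 ± 0.0706 and Gabra2, a GABA-A subunit, by -0.16 ± 0.0544. Of 24 presynaptic genes 22 had positive differences (median 0.065), and without irradiated mouse 2 the count was 18 and the median 0.040. Its smallest p was that of Syt2, a calcium sensor, at 6.12, 8.21 and 6.07 in the irradiated and 4.41, 4.39 and 5.31 in the control mice (0.44 ± 0.12). Dlg4, the scaffold PSD-95, was lower in every irradiated mouse, at 213, 220.5 and 231 in the irradiated and 262, 247 and 246 in the control mice (-0.18 ± 0.0575), in a list of 21 scaffold genes with 13 positive differences. The 23 sodium and calcium channel genes had a median of 0.13, and 0.054 without irradiated mouse 2.

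Genes often followed in studies of radiation and cognition lay within the spread of the mice. Bdnf, the neurotrophin of activity-dependent plasticity, was at 10.3, 10.5 and 9.36 in the irradiated and 10.2, 9.25 and 9.71 in the control mice. Dcx, which marks immature neurons, was at 2.38, 2.29 and 1.71 in the irradiated and 1.84, 2.16 and 1.82 in the control mice. The glucocorticoid receptor Nr3c1 was at 19.9, 18.4 and 17.4 in the irradiated and 16.98, 19.2 and 19.4 in the control mice. All overlapped, as did the serotonin receptor Htr1a (difference 0.077 ± 0.0867) and the peptide Vip (0.055 ± 0.0731, and 0.034 without irradiated mouse 2). Of 18 neurogenesis genes 10 had positive differences with a median of 0.014 (0.024 without irradiated mouse 2). Within them Fabp7, a fatty acid binding protein of neural progenitors and astrocytes, was at 41.02, 24.2 and 29.3 in the irradiated and 53.1, 49.6 and 45.3 in the control mice (-0.66 ± 0.17), and Sox2, a progenitor factor, at 26.8, 23.6 and 24.7 in the irradiated and 30.7, 31.4 and 29.1 in the control mice (-0.27 ± 0.0626). Both were lower in every irradiated mouse, in the prefrontal cortex with differences of -0.81 and -0.30. Of 18 neurotrophin and receptor genes 13 had positive differences (median 0.040, and 0.063 without irradiated mouse 2).

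Cdkn1a, the p53 target that stops the cell cycle, was at 3.41, 3.796 and 5.67 in the irradiated and 3.15, 3.29 and 3.03 in the control mice. Irradiated mouse 3 was highest, and the others lay just above the controls (0.33 ± 0.15). Of 24 p53 and DNA damage genes 12 had positive and 12 negative differences (median 0.005, and -0.006 without irradiated mouse 2). Sesn1 (0.20 ± 0.0635) and Trp53inp1 (0.21 ± 0.0723), further p53 targets, were without overlap above. Siva1, a proapoptotic p53 target, was without overlap below, at 7.17, 8.09 and 7.75 in the irradiated and 10.7, 11.1 and 11.2 in the control mice (-0.47 ± 0.0654, adjusted p 0.16).

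Fosl2, a FOS-family factor, had a narrow spread in both groups, at 14.6, 14.7 and 13.8 in the irradiated and 9.94, 11.1 and 9.695 in the control mice (0.45 ± 0.0685, adjusted p 0.265). Egr1, induced by neuronal activity, was at 53.1, 48.4 and 40.3 in the irradiated and 37.4, 38.4 and 37.5 in the control mice (0.31 ± 0.0929). Nr4a2, an orphan nuclear receptor that also marks deep cortical and claustral neurons, was at 24.9, 19.9 and 14.99 in the irradiated and 13.3, 13.6 and 14.7 in the control mice (0.47 ± 0.15), highest in irradiated mouse 1. Fos itself overlapped, at 7.05, 6.902 and 4.99 in the irradiated and 6.09, 6.78 and 4.04 in the control mice. The 20 immediate early genes had 14 positive differences and a median of 0.044 (0.021 without irradiated mouse 2).

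Several clock genes had higher values in every irradiated mouse. Per2, a repressor of the clock, was at 6.63, 6.604 and 6.46 in the irradiated and 3.69, 4.11 and 5.398 in the control mice (0.50 ± 0.11), with the irradiated mice tightly together. Hlf, an output factor, was at 30.2, 32.6 and 29.8 in the irradiated and 22.6, 26.5 and 24.2 in the control mice (0.33 ± 0.0707). Per1, the repressor that light and glucocorticoids induce, was at 16.2, 17.6 and 17.1 in the irradiated and 13.7, 15.2 and 15.2 in the control mice (0.20 ± 0.0642), without overlap by a small margin. Bhlhe40 (0.25 ± 0.0896), Ciart (0.19 ± 0.0717, chosen after its values were seen) and Rora (0.24 ± 0.0923) were higher in every irradiated mouse as well. Of 20 clock genes 16 had positive differences and 7 were without overlap above (7.41% of all genes) and 1 below. The median was 0.054, and without irradiated mouse 2 it was 0.027 with 13 positive differences. The sources used here do not give the hour at which each mouse was killed, and its part was not tested.

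Glucocorticoid-induced genes had mostly positive differences that were unequal among the irradiated mice. Of 19 tested 17 had positive differences (median 0.20), while the list mean in irradiated mice 1, 2 and 3 was -0.033, 0.19 and 0.41 relative to the control mean. Irradiated mouse 1 was thus at the level of the controls. Tsc22d3, an anti-inflammatory target of the receptor, was at 33.01, 38.7 and 52.6 in the irradiated and 29.5, 33.96 and 27.3 in the control mice and overlapped. Klf9, a factor induced by glucocorticoid and thyroid hormone, was at 50.6, 59.01 and 61.1 in the irradiated and 42.2, 46.6 and 52.4 in the control mice, and Bcl6, a repressor, at 15.9, 18.02 and 18.6 in the irradiated and 14.6, 13.9 and 16.6 in the control mice. Both overlapped too. Of 11 thyroid hormone genes 8 had negative differences, among them Crym, which binds the hormone in the cytosol, at 125, 141 and 163 in the irradiated and 172, 166 and 188 in the control mice (-0.30 ± 0.0988).

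Microglial genes were mostly lower. Of 20 homeostatic microglia genes 17 had negative differences, 5 at an unadjusted p under 0.05 (5.81% of all genes) and 7 with every irradiated mouse below every control (8.16% of all genes). Their median was -0.12, and -0.041 with equal totals, where 12 were negative. Trem2, a lipid receptor of microglia, was at 11.3, 10.5 and 12.2 in the irradiated and 15.6, 15.5 and 14.2 in the control mice (-0.39 ± 0.0719). Aif1, whose product is the microglial stain IBA1, was at 6.55, 5.96 and 5.51 in the irradiated and 8.95, 9.46 and 7.54 in the control mice (-0.46 ± 0.09698). Cx3cr1, the fractalkine receptor, was at 12.7, 12.8 and 13.3 in the irradiated and 14.9, 14.6 and 15.6 in the control mice (-0.20 ± 0.0559). These 3 had no overlap. Tmem119, a microglial marker, overlapped in irradiated mouse 3 (-0.17 ± 0.0812). In the prefrontal cortex the differences of Trem2 and Aif1 were -0.066 and -0.036, with interactions of -0.32 ± 0.0969 and -0.42 ± 0.14 that did not pass (adjusted p 0.623 and 0.693).

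Genes known to be raised in microglia around damage had mostly lower values, Spp1 being an exception. Of 15 tested 13 had negative differences (median -0.19, and -0.11 with 10 negative under equal totals), among them Lpl, lipoprotein lipase, at 10.3, 11.5 and 11.5 in the irradiated and 15.3, 13.4 and 15.1 in the control mice (-0.37 ± 0.0741), and Tyrobp, the adaptor of Trem2, at 27.6, 26.6 and 29.96 in the irradiated and 31.2, 31.7 and 33.4 in the control mice (-0.19 ± 0.0606). Of 9 complement genes 6 had negative differences, with C1qb at 43.4, 43.8 and 54.4 in the irradiated and 58.9, 54.3 and 53.7 in the control mice.

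Classical cytokines were all below the level at which genes were tested. Tnf was listed at 0 in all 6 libraries. Il6 was at 0, 0 and 0.114 in the irradiated and 0, 0 and 0 in the control mice. Il1b was at 0.0901, 0.269 and 0.08899 in the irradiated and 0.181, 0.0897 and 0 in the control mice, and the chemokine Ccl2 at 0.0839, 0.0843 and 0.675 in the irradiated and 0, 0 and 0.279 in the control mice, with its highest value in irradiated mouse 3. Ifit1, an antiviral effector of the interferon response, was also highest there, at 1.02, 1.61 and 3.46 in the irradiated and 0.791, 0.842 and 1.17 in the control mice. Ifit3 was at 3.39, 4.06 and 7.55 in the irradiated and 3.99, 2.71 and 3.57 in the control mice, and Usp18, a brake on the interferon receptor, at 0.4201, 0.321 and 1.36 in the irradiated and 0.292, 0.192 and 0.6195 in the control mice, these 2 chosen after their values were seen. Oasl2, at 0.968, 1.26 and 1.89 in the irradiated and 0.639, 0.562 and 0.637 in the control mice, and Isg15, at 0.915, 0.828 and 1.29 in the irradiated and 0.467, 0.555 and 0.306 in the control mice, chosen in the same way, were too low to be tested and were higher in every irradiated mouse. Of 20 interferon and antigen presentation genes 13 had positive differences, with a median of 0.067 (0.041 without irradiated mouse 2).

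Some genes of the acute phase and of neutrophils had higher values at low levels. Lcn2, an iron-sequestering protein of the acute phase that neutrophils and brain endothelium make, was at 1.09, 7.104 and 2.73 in the irradiated and 0.237, 0.0783 and 0.0858 in the control mice. Irradiated mouse 2 was far above the rest, and every irradiated mouse was above the controls (1.82 ± 0.41, adjusted p 0.419). S100a9, a neutrophil calprotectin chain, was at 1.904, 5.63 and 0.494 in the irradiated and 0.329, 0 and 0 in the control mice. Its partner S100a8, chosen after its values were seen, was at 1.57, 6.22 and 1.68 in the irradiated and 0, 0 and 1.63 in the control mice, where control 3 overlapped. Other neutrophil granule genes were lower still, Ngp at 0.3701, 0.685 and 0.157 in the irradiated and 0, 0 and 0.0572 in the control mice and Camp at 0.511, 0.517 and 0 in the irradiated and 0.132, 0 and 0 in the control mice, both chosen in the same way. The share of Lcn2 and Lrg1 that blood left in the vessels carried was not tested. Red cell genes had values in the same direction: Alas2, the first enzyme of heme synthesis in red cells, was at 1.92, 1.87 and 2.82 in the irradiated and 0.972, 1.16 and 1.0 in the control mice (0.64 ± 0.13), and Hbb-b2, a beta globin, at 25.1, 23.5 and 36.4 in the irradiated and 20.1, 15.3 and 19.2 in the control mice (0.59 ± 0.16).

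Over the whole blood list 10 of 18 genes were tested, and 6 of these had positive differences. S100a8 and S100a9 passed the filter only through their irradiated values. Globin copies are near-identical and may share fragments. Cp, ceruloplasmin, was at 3.59, 5.04 and 3.902 in the irradiated and 1.99, 2.42 and 3.47 in the control mice, higher in every irradiated mouse (0.52 ± 0.16). Serpina3n, which reactive astrocytes make, went the other way, at 20.01, 18.96 and 21.1 in the irradiated and 21.7, 25.1 and 28.5 in the control mice (-0.31 ± 0.0952). Of 20 acute-phase genes 8 were tested, and 7 of these had positive differences with a median of 0.19. Lcn2 and Lrg1, with control means of 0.134 and 0.517, passed the filter only through their irradiated values, which favours a positive sign. When irradiated mouse 2, the highest library of this list, was left out, Lcn2 fell below the filter. The median of the remaining genes was then 0.094.

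Astrocyte genes had no common direction, 11 positive and 12 negative of 23. Gfap, the filament protein of reactive astrocytes, was at 155, 137 and 180.0 in the irradiated and 214, 175 and 190.5 in the control mice, with overlap. Gjb6, a connexin of astrocytes, was at 27.4, 28.99 and 31.6 in the irradiated and 24.2, 23.9 and 21.5 in the control mice, higher in every irradiated mouse (0.33 ± 0.0714). Sox9, a nuclear factor of astrocytes, was at 16.4, 14.9 and 16.4 in the irradiated and 20.98, 20.3 and 18.98 in the control mice, lower in every one (-0.32 ± 0.0648).

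Myelin genes had mostly lower values. Of 25 tested 23 had negative differences, 10 at an unadjusted p under 0.05 (5.81% of all genes) and 6 without overlap (8.16% of all genes). With equal totals 19 were negative. The median was -0.16, -0.15 without irradiated mouse 2 and -0.072 with equal totals. Mbp, a main protein of compact myelin, was at 1236, 1220.0 and 1358 in the irradiated and 1623, 1737 and 1380.0 in the control mice, and control 3 lay near the irradiated mice (-0.31 ± 0.11). Ninj2, an adhesion protein of oligodendrocytes, had the smallest p of all genes that were lower, at 1.88, 1.89 and 1.89 in the irradiated and 3.41, 3.21 and 3.71 in the control mice. The irradiated mice were nearly equal and well below the controls (-0.62 ± 0.0838, adjusted p 0.148). The precursor list had 9 negative differences of 16. In each direction 1 gene was without overlap (7.41% of all genes above, 8.16% below).

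Choroid plexus genes were low in irradiated mouse 2. All 22 had negative differences, with a median of -1.05, and without that mouse the median was -0.085. In irradiated mouse 2 they stood at a median of 7.03% of the control mean (range 1.14% to 44.5%). In irradiated mice 1 and 3 the medians were 79% and 104%. Ttr, transthyretin, the main product of choroid plexus, was at 2974, 52.1 and 4453 in the irradiated and 5625, 4509 and 3596 in the control mice. Folr1, its folate transporter, was at 29.6, 1.03 and 34.4 in the irradiated and 45.5, 34.97 and 24.7 in the control mice. Irradiated mouse 2 alone stood out, and the other 5 libraries overlapped. The one choroid gene without overlap was Msx1, a homeobox factor, at 3.9, 1.02 and 3.74 in the irradiated and 6.85, 4.99 and 4.02 in the control mice, with a difference of -0.78 ± 0.33, and -0.36 without mouse 2.

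Ependymal cilia genes were lower too, in 16 of 16, with a median of -0.40. Without irradiated mouse 2 the median was -0.16, with 14 negative and 2 positive differences, and with equal totals 14 were negative as well. The list mean was -0.41, -0.79 and 0.022 in irradiated mice 1 to 3 and 0.15, -0.062 and -0.086 in the controls, so irradiated mouse 3 lay among the controls. Foxj1, the master factor of motile cilia, was at 6.45, 4.81 and 9.15 in the irradiated and 10.6, 9.98 and 8.03 in the control mice and overlapped. Dynlrb2, a dynein light chain of cilia, was at 8.08, 5.44 and 8.398 in the irradiated and 12.4, 11.8 and 11.2 in the control mice and did not overlap (-0.64 ± 0.14). Without irradiated mouse 2 its difference was -0.47, and its interaction with region then passed, together with that of Crabp2. Mia, an extracellular protein of the list, was at 5.83, 3.38 and 10.01 in the irradiated and 10.3, 13.5 and 11.5 in the control mice (-0.88 ± 0.29, and -0.55 without irradiated mouse 2).

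**Figure D5:**
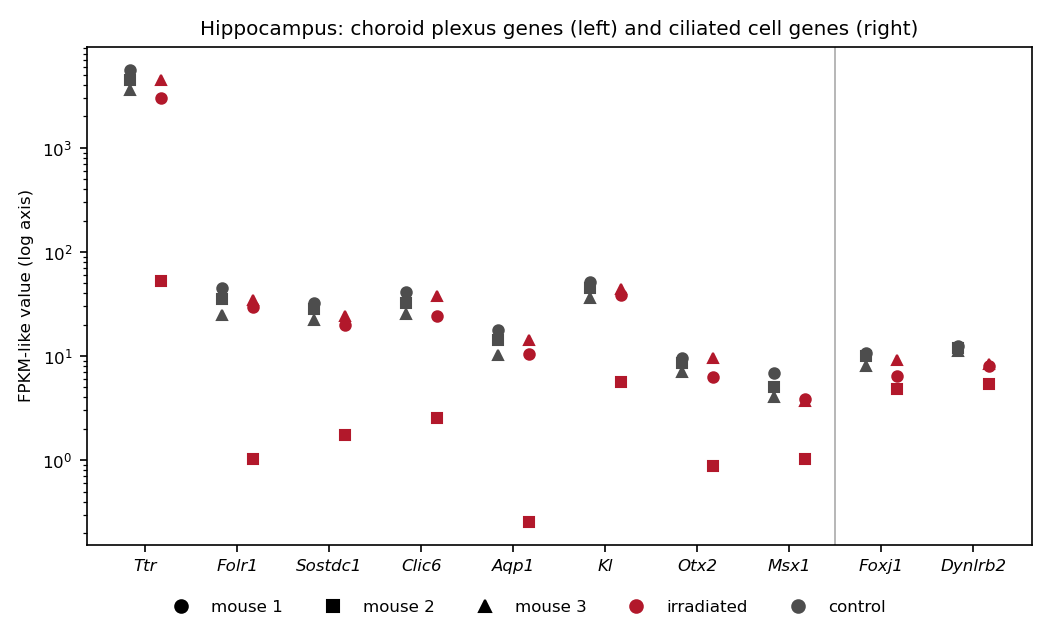
FPKM-like values (log axis) of 8 choroid plexus genes and 2 genes of ciliated cells in the hippocampal libraries, irradiated mice in red and controls in grey, with 1 symbol per mouse. For the choroid genes the low red square is irradiated mouse 2, and irradiated mice 1 and 3 lie among or just below the controls.

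Genes of the protein synthesis and energy machinery had mostly lower values. Of 83 cytosolic ribosomal protein genes 82 had negative differences, 33 at an unadjusted p under 0.05 (5.81% of all genes), and 8 had no overlap (8.16% of all genes). The median was -0.24, -0.15 without irradiated mouse 2 and -0.15 with equal totals. The list mean was -0.26, -0.41 and -0.048 in irradiated mice 1 to 3 and 0.14, -0.006 and -0.13 in the controls, so irradiated mouse 3 lay among the controls. The same order appears for 78 respiratory chain subunits (75 negative, median -0.17) and 77 mitochondrial ribosomal proteins (67 negative, median -0.12). With equal totals 57 and 50 were negative, with medians of -0.085 and -0.033. The respiratory chain median was -0.10 without irradiated mouse 2, and the mitochondrial ribosomal one -0.074 without control 1. The mitochondrial ribosomal list had 21 genes with every irradiated mouse below every control, 8.16% of all genes being so. The 31 proteasome genes had a median of -0.081, which was -0.043 without irradiated mouse 2 and 0.005 with equal totals.

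Among single genes of this kind Chchd1, a small protein of the mitochondrial ribosome, was at 36.2, 37.8 and 40.5 in the irradiated and 50.2, 50.6 and 52.4 in the control mice (-0.41 ± 0.0558, adjusted p 0.148). Mrpl34, of the large mitochondrial subunit, was at 27.4, 27.1 and 28.3 in the irradiated and 34.3, 33.5 and 35.2 in the control mice (-0.30 ± 0.0487). Both had narrow groups far apart. Chchd1 overlaps a gene on the opposite strand, and the sources used here do not say whether the counting used the strand. Antioxidant genes had 31 negative differences of 34 (median -0.10), but 18 with equal totals (median -0.022), and the median was -0.061 without irradiated mouse 2. Gsta4, a glutathione transferase, was at 59.9, 49.8 and 67.2 in the irradiated and 81.7, 73.8 and 72.8 in the control mice (-0.37 ± 0.10). Of 27 heat shock genes 15 were negative, and Cryab, a small chaperone of oligodendrocytes and astrocytes, was at 91.9, 82.8 and 93.4 in the irradiated and 117, 102 and 101 in the control mice (-0.25 ± 0.075). Of 23 cholesterol genes 16 were positive (median 0.044, and 0.077 without irradiated mouse 2).

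Further genes of the smallest p had roles outside these lists. Cnn2, a calponin that binds actin, was at 4.94, 5.67 and 6.11 in the irradiated and 3.41, 3.56 and 3.38 in the control mice (0.56 ± 0.0872), and in the prefrontal cortex its difference was -0.24 (interaction 0.80 ± 0.14, adjusted p 0.298). Il1rap, the shared chain of interleukin 1 family receptors, was at 11.6, 12.03 and 10.9 in the irradiated and 9.12, 8.95 and 8.54 in the control mice (0.34 ± 0.0633). Klk8, neuropsin, a secreted protease of hippocampal neurons, was at 7.29, 6.98 and 7.11 in the irradiated and 11.6, 9.098 and 9.88 in the control mice (-0.46 ± 0.0888). All were without overlap. Lower in every irradiated mouse were also Aarsd1 (-0.26 ± 0.0485), Thap3 (-0.30 ± 0.0575), Abhd14b (-0.43 ± 0.0845), Cluap1, a cilium assembly protein (-0.25 ± 0.0502), Dpy30, a subunit of histone methyltransferases (-0.32 ± 0.0652), and the antisense transcript Med9os (-0.87 ± 0.16). Abhd14b, Klk8 and Il1rap overlap genes on the opposite strand.

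The nuclear long RNA Neat1, the scaffold of paraspeckles, was lower in every irradiated mouse, at 27.4, 26.1 and 20.9 in the irradiated and 50.1, 35.7 and 36.1 in the control mice (-0.68 ± 0.15, adjusted p 0.417). In the same list Rmrp overlapped, at 13.7, 9.65 and 8.37 in the irradiated and 11.9, 15.6 and 14.3 in the control mice, and so did Rpph1, at 7.32, 11.3 and 2.96 in the irradiated and 6.22, 12.0 and 9.09 in the control mice. Small nucleolar RNAs gave values that jump between 0 and very high numbers, as for Snora30, at 0, 127 and 158 in the irradiated and 0, 0 and 0 in the control mice, so no difference is read from them. Syne1, a nuclear envelope protein, was chosen because it passed when control 3 was left out. It was at 62.9, 68.5 and 57.02 in the irradiated and 22.1, 22.5 and 64.4 in the control mice, where control 3 alone sat with the irradiated mice.

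The prefrontal cortex of the same mice gives a second view of the 28 genes with the smallest p and no overlap, 14 in each direction. All 28 were tested there, 24 had the same sign and 15 had it at an unadjusted p under 0.05. Of all 12456 genes tested in both regions 65.9% had the same sign and 6.01% had it at that threshold. The interaction of region and treatment was at an unadjusted p under 0.05 in 14 of the 28 (5.69% of all genes), and the hippocampal values that chose the genes enter it. Both regions come from the same mice, so the second is no independent sample of mice. Vegfa was at 21.9, 23.99 and 21.8 in the irradiated and 14.8, 15.6 and 16.9 in the control mice there. Every irradiated mouse was again higher, and the interaction was 0.10 ± 0.0861 (adjusted p 0.96). Acer2 was at 3.19, 3.82 and 4.23 in the irradiated and 1.14, 2.27 and 3.05 in the control mice, with an interaction of 0.40 ± 0.22 (adjusted p 0.901). Ctgf was at 12.9, 14.5 and 14.4 in the irradiated and 8.83, 14.6 and 13.3 in the control mice, and its interaction of 0.84 ± 0.18 had an unadjusted p of 0.00047 (adjusted 0.364). Vtn differed by 0.023 there (interaction 0.65 ± 0.14, adjusted p 0.364). Over all 12894 genes tested for a difference between regions, 734 (5.69%) reached an unadjusted p under 0.05 and 0 passed (0%) after adjustment.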

How the data were processed

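RNA was extracted with Trizol and made into directional NEBNext Ultra II libraries, per the labels' protocols, and TopHat and mm10 are named in the submitters' processing notes, with no version. The deposited tables hold 1 FPKM-like value per gene symbol. The unit is not named in them: the values are not whole, their sums differ between libraries, and they scale with gene length. The sources used here do not give the counting tool, the annotation or the use of strand. FPKM scale with the total of their library, and a shift in a few abundant genes moves the rest.

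Genes with a mean of at least 1 over the 6 hippocampal libraries were tested on log2(value + 1) with limma-trend (limma 3.58.1, R 4.3.3), two-sided, with Benjamini-Hochberg adjustment over all 12947 genes and a threshold of 0.05. This scale understates differences of genes near 1. A gene with a control mean below 1 passes the filter only through its irradiated values, which favours a positive sign. The reverse holds for a gene with an irradiated mean below 1. The fit was also run on simulated data as a check of the code, and no result here rests on that run. Differences between regions used all 12 libraries with the mouse as a block (mouse correlation 0.272). Depth was estimated from the step that 1 fragment makes in low values and gives no counting error per gene. Positions and overlaps come from GENCODE M21, which matched 22110 of 23183 symbols (95.37%), and upstream sequences from RefSeq on GRCm38.p6. Genes named are the 14 per direction of smallest p without overlap and without clone names, up to 4 members per list by p, a set of single genes, and others said to be chosen after their values were seen or serving as markers. The members and the 48 lists were chosen with earlier results of these data known. Alternatives were each library left out, other scalings, filters, pseudocounts and fits. All libraries carry 1 batch label.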

Additional observations from a re-analysis of the deposited data

Results flagged for a closer look

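For 4 of the genes named in this report, Crabp2, Slc6a13, Col1a1 and Ptn, the groups did not overlap in either region and had opposite order. The same count over all genes is not given here. In the hippocampus alone, 15.6% of all genes tested had groups without overlap. The difference between the hippocampal and the prefrontal effect, on the log2(value + 1) scale, was 1.64 for Crabp2 (unadjusted p 4.8e-06, adjusted limma p 0.0619) and 1.64 for Slc6a13 (adjusted p 0.315). It was 0.91 for Col1a1 (adjusted p 0.32) and 0.31 for Ptn, a heparin-binding growth factor (adjusted p 0.364). Ptn was at 85.7, 88.4 and 84.6 in the irradiated and 77.05, 80.5 and 84.03 in the control mice in the hippocampus and at 88.8, 93.0 and 96.1 in the irradiated and 101, 112 and 109 in the control mice in the prefrontal cortex. None of the 4 passed the adjusted threshold. Col1a1, with a hippocampal control mean of 0.941, passed the hippocampal filter only through its irradiated values.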

How the results depend on the processing

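The number of genes passing the adjusted threshold was 0 under 10 of the 15 alternatives. It was 4 with values rescaled to equal totals (Acer2, Crabp2, Ctgf and Lrg1), 3 under robust moderation (Acer2, Crabp2 and Ctgf) and 1 with a single fit over all 12 libraries (Vegfa). Leaving out 1 mouse at a time gave 0 to 1, namely Snora30 without irradiated mouse 1 and Syne1 without control 3. The count at an unadjusted p under 0.05, 1361 with all libraries, ran from 580 (without control 1) to 1998 (without control 3) as single mice were left out, and from 1000 to 1680 under the other alternatives. Of the 1361 genes, 36.9% kept their sign and that threshold without control 1 and 45.6% without irradiated mouse 2. The replicate block gave 0 genes passing and 1046 at an unadjusted p under 0.05. Mouse numbers do not pair the groups, which are different mice, and same-numbered deviations correlated at 0.101, -0.017 and -0.165 across genes. For the difference between regions 0 genes passed, also with the mouse as a fixed block, without a mouse block and with equal totals, and 2 passed without irradiated mouse 2 (Crabp2 and Dynlrb2). Of 3448 values of 235 genes under alternatives, 7 had the opposite sign and 10 passed with the same sign. With the trend on gene length removed, Bdnf was at -0.0106 and Nr3c1 at -0.0031. Leaving out single mice gave -0.0545 to 0.0454 for Nr3c1, -0.0057 to 0.15 for Htr1a, -0.036 to 0.29 for Fos and -0.78 to 0.040 for Rpph1. The cause of these changes was not tested. Of 720 list medians under alternatives, 662 stayed within the spread between libraries, and 14 of 48 lists had a median of the opposite sign under at least 1. Depth limits what can be said of genes below 1, such as the cytokines.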
